A study of Mus musculus with 24 samples.

Results

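The genes described here encode the T cell receptor complex and the kinases and adaptor that act directly on it. They are 9 genes, Cd3d, Cd3e, Cd3g, Cd247, Cd4, Cd8a, Lck, Zap70 and Lat, chosen by their gene name on the array among 29742 names, and they are measured by 13 of 39429 probes. Blood RNA came from male C57BL/6J mice in 4 groups of 6, with 1 mouse per array on 24 Agilent arrays with a single dye (Cy3). Mice were 2 months old (young) or 21 months old (old), and at each age a group was left unirradiated and another received 4 Gy of x-rays. Blood drawn from the heart 24 h after exposure was kept in an RNA stabilizing solution. All 9 genes passed the filters on dim and invariant probes, as did 17802 genes in all. A level below is the log2 signal of a gene minus the median of its array, so that levels compare 1 gene between mice and not 1 gene with another. A gene is called where limma's moderated test gave an unadjusted p below 0.005 together with a p below 0.05 after Benjamini-Hochberg adjustment over all genes tested.

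The T cell receptor recognizes peptide bound to major histocompatibility molecules, and it signals through the CD3 delta, epsilon and gamma chains (Cd3d, Cd3e, Cd3g) and the zeta chain (Cd247), whose cytoplasmic tails carry tyrosine motifs. The coreceptors CD4 and CD8 bind class II and class I molecules and bring the kinase Lck, which phosphorylates these motifs. Zap70 docks on the phosphorylated tails and phosphorylates the adaptor Lat, on which downstream signalling complexes assemble. In blood these transcripts come mainly from T cells, and natural killer cells also express some of them, such as Cd247, Zap70 and Lat. Bulk RNA was measured, so fewer T cells and less RNA per T cell cannot be told apart.

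Some arrays stood apart from the others of their group, and many of the differences below are also given without them. Unirradiated old mice 1 and 6 correlated with each other at r = 0.994 over probes, above any other pair of that group, and irradiated old mice 4 and 6 correlated with each other at r = 0.988 and with the others at 0.794 to 0.857. Irradiated old mice 4 and 6 had array medians of 8.66 and 8.84, against 14.4 to 44.8 on all other arrays. Their red cell precursor markers summed to 142431 and 150952 times the array median, against 26586 to 52771 times in the other irradiated old mice. Their monocyte markers had a mean level of 3.32 and 3.52, against 5.45 to 6.22. By summed signal these markers were at 1117 and 1113 times the array median, against 1134 to 1701 times, a much smaller gap. The part of these features in the differences was not tested. Transcripts of hepatocytes, which blood should lack, had a summed signal of 12782 to 26827 times the array median in irradiated young mice 2, 4 and 5 and 12288 to 17865 times in irradiated old mice 2, 3 and 5, against 2.17 to 2159 times in unirradiated mice. All 7 genes of that list were well above background in those 6 arrays and in unirradiated young mice 3, 4 and 5, and at most 2 of them in unirradiated old mice. Each slide held 4 arrays of mice of a single age, all arrays of an age were scanned on 1 day, and age and scan day cannot be told apart. Of the 6 slides, 2 held both exposure groups of an age, with 2 arrays of each group. Every other slide held a single exposure group, so irradiation and slide can be told apart only in part. The median of all genes tested lay at -0.20 (log2) for irradiated minus unirradiated young mice, -0.25 for old mice, 0.63 for old minus young unirradiated mice and 0.20 for old minus young irradiated mice. Scaling each array to its 75th percentile moved these medians to -0.20, 0.24, 0.00 and -0.02, so the age differences below are also read against the median. The median of irradiated minus unirradiated old mice changed sign with this scaling, so the differences in old mice depend on the scaling too.

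The following 60-base probe sequences are shown because they say which part of each transcript was read. Those of Cd3d and Lat are behind the main values of these genes, whereas those of Cd247 and Cd8a are the second probe of each gene, used for comparison. The Cd8a probe behind the main values, A_52_P443334, lies at chr6:71328911-71328970 (plus strand) and is not printed here. The probes of Cd3d and Cd247 shown span 232 and 1019 bases of the genome (mouse build mm9, chr9:44794171-44794402 and chr1:167786567-167787585, plus strand), more than their own length, so each is split on the genome. The Lat probe lies at chr7:133507719-133507778 on the minus strand and the second Cd8a probe at chr6:71323885-71323944 on the plus strand, and exon annotation of this build was not used here.
Cd3d A_51_P285206: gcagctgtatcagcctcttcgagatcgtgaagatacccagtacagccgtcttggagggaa
Cd247 A_52_P173555: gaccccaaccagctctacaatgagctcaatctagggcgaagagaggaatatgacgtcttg
Lat A_51_P495242: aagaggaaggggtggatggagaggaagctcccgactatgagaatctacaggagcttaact
Cd8a A_52_P150547: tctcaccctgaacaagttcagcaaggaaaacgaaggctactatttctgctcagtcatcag

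In irradiated young mice the CD3 chains, Lck and above all Cd8a, the alpha chain of CD8, were lower than in unirradiated young mice, whereas Cd4, Lat and Cd247 (by the probe that represents it) were not called. The second Cd247 probe was called lower, as described below. Of the 9 genes, 5 were called and all 5 were lower, beside 35.4% of all genes called, 21.1% called lower and 14.3% called higher. For Cd8a, Cd3d and Cd3e, 3 of the 9 genes, levels of irradiated mice were all below those of unirradiated mice, beside 15.2% of all genes that were lower without overlap. The median difference of the 9 genes was -1.04, against -0.20 over all genes.

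Among the CD3 chains, Cd3d lay between 7.08 and 7.40 in unirradiated young mice (median 7.23) and between 4.64 and 6.71 in irradiated young mice (median 5.53). Every irradiated mouse was below every unirradiated one, and the spread between mice was wider after irradiation. The difference was 2.87-fold (log2 difference -1.52, SE 0.30, n = 6 and 6, limma adjusted p = 0.00115). Cd3e, which pairs with both delta and gamma chains in the complex, ranged from 7.39 to 8.07 (median 7.88) in 5 unirradiated mice, its spot on the array of mouse 4 having been set aside as non-uniform, and from 6.09 to 7.25 (median 6.77) after irradiation. The groups again did not overlap, with a 2.18-fold lower level (log2 difference -1.13, SE 0.23, limma adjusted p = 0.00206). Cd3g ranged from 5.74 to 6.36 (median 5.97) without and from 3.78 to 5.83 (median 4.69) with irradiation. Here 4 of 6 irradiated mice were below all unirradiated ones, and the gene was 2.17-fold lower (log2 difference -1.12, SE 0.32, limma adjusted p = 0.0113). This call held only without irradiated young mouse 1 or 6 when 1 mouse was left out in turn, that is in 2 of 12 cases, with differences of -1.31 to -0.90 over all 12.

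Cd8a showed the largest change of the 9 genes in young mice, 7.18-fold lower after irradiation (log2 difference -2.84, SE 0.32, limma adjusted p = 2.98e-05). Its levels ran from 3.49 to 4.36 (median 3.90) in unirradiated young mice and from -0.39 to 1.87 (median 1.21) in irradiated young mice. Every irradiated mouse was below every unirradiated one, by a gap wider than the whole range of the unirradiated mice. In 5 of the 6 irradiated mice the probe was still well above background. A second Cd8a probe, A_52_P150547, differed by -2.25 (SE 0.32, limma adjusted p = 0.000152 over 22482 probes, where 34.6% were called). This second probe was well above background in 3 of the 6 irradiated mice. Cd8b1, the other CD8 chain, named here after its values were seen, fell by 2.58 (SE 0.45, limma adjusted p = 0.000561). For Cd4, the irradiated young mice ranged from 6.36 to 7.76 (median 7.32) and the unirradiated ones from 6.90 to 7.64 (median 7.30). The irradiated mice lay on both sides of the unirradiated range, with 2 below and 2 above it, and the difference of -0.16 was not called (95% interval -0.72 to 0.40).

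Of the kinases, Lck ranged from 7.73 to 8.19 (median 7.94) in unirradiated and from 5.76 to 7.75 (median 6.81) in irradiated young mice. All but 1 of the irradiated mice were below every unirradiated one, and the gene was 2.06-fold lower (log2 difference -1.04, SE 0.29, limma adjusted p = 0.0108). With 1 mouse left out in turn this call held in 3 of 12 cases, without irradiated young mouse 1, 4 or 6, with differences of -1.21 to -0.81. Zap70 ranged from 5.73 to 6.18 (median 6.11) and from 4.66 to 6.16 (median 5.22) after irradiation. Of the 6 irradiated mice, 4 were below the unirradiated range, but the difference of -0.65 (95% interval -1.17 to -0.13, limma adjusted p = 0.0393) missed the threshold of 0.005 on the unadjusted p, which it passed without irradiated young mouse 6 (-0.81). Its second probe gave -0.71. For Lat, the adaptor, levels of 4.38 to 5.15 (median 4.99) and 4.10 to 5.48 (median 5.07) overlapped, with a difference of 0.10 (95% interval -0.40 to 0.60). Irradiated young mouse 4 held the lowest level of all 24 mice for Lat, Lck, Zap70, Cd3d, Cd3g and Cd8a.

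**Figure D1:**
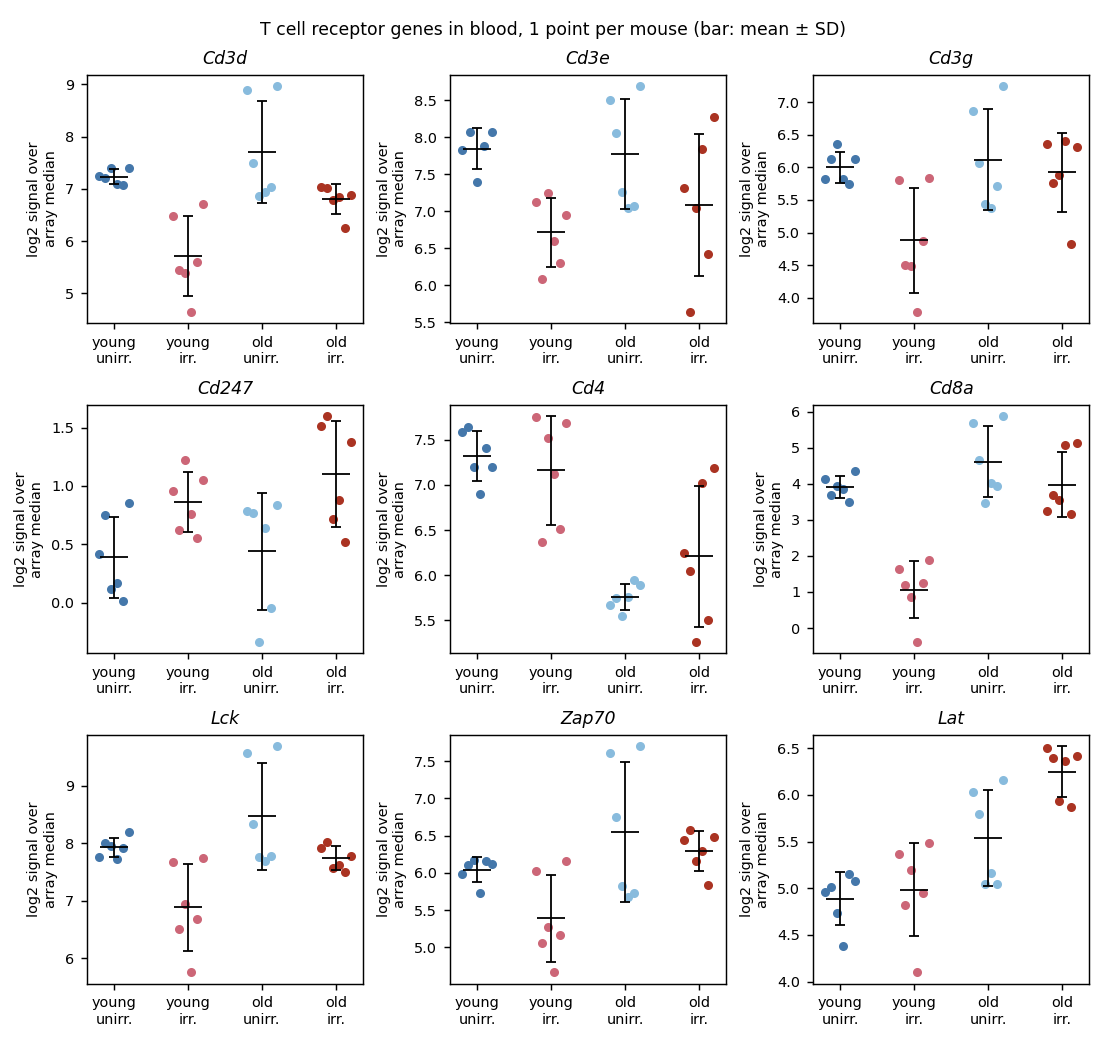
Log2 signal over the array median of each of the 9 genes (vertical axes, each with its own scale) in the 4 groups, 1 point per mouse, with the mean ± SD as bars (n = 6, and 5 for Cd3e in unirradiated young mice). Cd8a of irradiated young mice, from -0.39 to 1.87, lies below all other mice, and Cd4 of unirradiated old mice, from 5.55 to 5.94, lies below all unirradiated young mice.

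The calls in young mice were compared with other features of the same arrays. Without irradiated young mice 2, 4 and 5, which carried hepatocyte transcripts, Cd8a (-2.45), Cd3d (-1.04) and Cd3e (-0.74) were still called, and Lck (-0.47) and Cd3g (-0.62) were not. Within the slide that held 2 mice of each group, the differences were -2.52 for Cd8a, -1.27 for Cd3d, -1.37 for Cd3e, -0.96 for Lck and -0.78 for Cd3g. With a normexp background correction, which adds an offset of 50 to every signal, only Cd8a was called (-1.50, limma adjusted p = 0.0358). Cd3d (-0.86), Cd3g (-0.50), Lck (-0.45) and Cd3e (-0.34) were lower without a call. With this correction the median of all genes tested was 0.21, and 837 of 11800 genes were called. Why the differences were smaller was not tested. Markers of B cells were called lower in 8 of 8 genes, with a summed signal of 1573 to 1977 times the array median in unirradiated and 205 to 591 times in irradiated young mice. Markers of natural killer cells were called higher in 4 of 8 genes (238 to 359 and 220 to 916 times), and markers of neutrophils in 3 of 8 genes (1585 to 3772 and 4059 to 11747 times). Markers of platelets were called higher in 8 of 8 genes, with 3698 to 6330 times the array median in unirradiated and 9014 to 23431 times in irradiated young mice, with no overlap. Markers of monocytes (481 to 773 and 835 to 977 times, no overlap) were called higher in 3 and lower in 1 of 7 genes. The part of these cell types in the differences of the T cell genes was not tested.

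Cd247 gave opposite answers with its 2 probes. The probe that represents the gene here, A_55_P2212968 (chr1:167800324-167800383, mm9), ranged from 0.01 to 0.85 (median 0.29) in unirradiated and from 0.56 to 1.23 (median 0.86) in irradiated young mice. Irradiated mice were higher by 0.47 with overlap (95% interval 0.07 to 0.88), which was not called. The probe printed above, A_52_P173555, ranged from 0.18 to 1.41 (median 0.70) and from -1.20 to 0.61 (median -0.47). It was lower after irradiation and called, by a log2 difference of -1.08 (SE 0.31, limma adjusted p = 0.0125 over all probes, where 34.6% were called). It was well above background in 3 of the 6 irradiated mice. Over all mice the mean was 0.70 for the first probe and 0.49 for this one. The higher mean decided which probe represents the gene. In old mice the first probe differed by 0.66 and the second by -0.83, neither called. The signal of both probes was close to the array median, and why they differ was not tested.

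**Figure D2:**
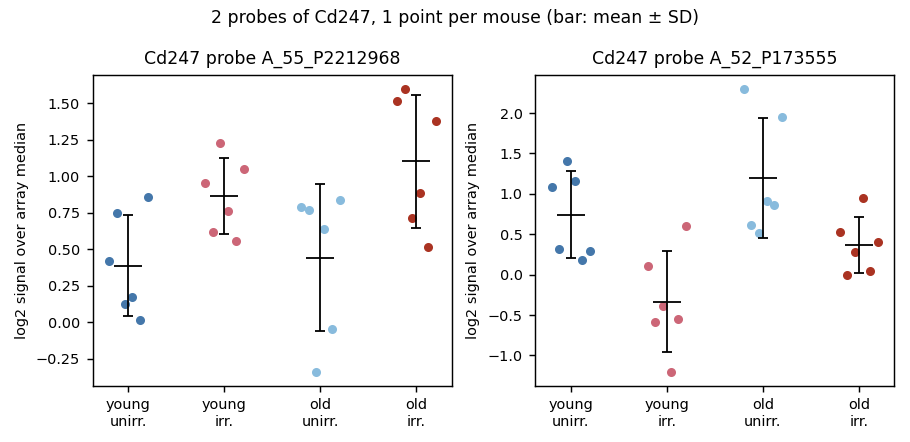
Log2 signal over the array median of both Cd247 probes in the 4 groups, 1 point per mouse, with the mean ± SD as bars (n = 6). With irradiation the means rise from 0.39 to 0.86 in young and from 0.44 to 1.10 in old mice for A_55_P2212968, and go from 0.74 to -0.33 and from 1.19 to 0.37 for A_52_P173555.

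In old mice the same exposure gave no call among the 9 genes, beside 24.9% of all genes called. Their median difference was -0.25, the same as that of all genes (-0.25). Cd3d ranged from 6.86 to 8.97 (median 7.27) in unirradiated and from 6.25 to 7.04 (median 6.87) in irradiated old mice. The groups overlapped, since only unirradiated mice 1 and 6 stood far above the rest, and the difference was -0.89 (95% interval -1.76 to -0.03, limma adjusted p = 0.101). Lck behaved alike, with levels of 7.69 to 9.68 (median 8.06) and 7.50 to 8.02 (median 7.70) and a difference of -0.73 (-1.55 to 0.09). Cd3e differed by -0.68 (-1.68 to 0.32), Cd3g by -0.19 (-1.03 to 0.65) and Zap70 by -0.25 (-1.09 to 0.59). Without unirradiated old mice 1 and 6, the differences were -0.28 for Cd3d, -0.15 for Lck, -0.27 for Cd3e, 0.28 for Cd3g and 0.30 for Zap70. The sign of Cd3g and Zap70 thus changed without those mice. It also changed with all mice kept under 75th percentile scaling, the median over probes above background and normexp correction. Without irradiated old mice 4 and 6, Cd3e differed by -1.16 and Cd3g by -0.41, neither called, although the adjusted p of Cd3e was 0.0407 (limma).

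Cd8a in old mice ranged from 3.46 to 5.88 (median 4.35) without and from 3.16 to 5.13 (median 3.62) with irradiation. Only 2 irradiated mice were below the unirradiated range, and the difference of -0.63 (95% interval -1.71 to 0.45, limma adjusted p = 0.345) was not called. It was -1.20 (limma adjusted p = 0.0467, not called) without irradiated old mice 4 and 6, which had the highest Cd8a of their group, and -0.05 without unirradiated old mice 1 and 6. Cd4 differed by 0.45 (-0.27 to 1.17). Among irradiated old mice, 4 were above and 2 below the unirradiated range of 5.55 to 5.94, and without the irradiated mice that carried hepatocyte transcripts (2, 3 and 5) Cd4 was higher by 1.06 and called (limma adjusted p = 0.00946). The mice left in that comparison were 1, 4 and 6, and without mice 4 and 6 the Cd4 difference was 0.00 (limma adjusted p = 0.992).

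Lat had the highest difference of the 9 genes in old mice, with levels of 5.05 to 6.16 (median 5.48) without and 5.87 to 6.51 (median 6.38) with irradiation. Of the irradiated mice, 4 were above the unirradiated range. The difference of 0.71 (SE 0.27, limma adjusted p = 0.0595) was not called, but it was with 75th percentile scaling (1.01, adjusted p = 0.0178) and without unirradiated old mice 1 and 6 (0.98, adjusted p = 0.0422). Platelets also express Lat, and their markers were called higher in 8 of 8 genes in the same comparison, with 6564 to 13345 times the array median in unirradiated and 18017 to 40166 times in irradiated old mice, with no overlap. Their part in the Lat difference was not tested. B cell markers were called lower in 7 of 8 genes in old mice, with a summed signal of 1812 to 3666 times the array median in unirradiated and 54.8 to 896 times in irradiated mice. Natural killer cell markers had 0 of 8 genes called, and monocyte markers (839 to 1749 and 1113 to 1701 times) 1 higher and 3 lower of 7.

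**Figure D3:**
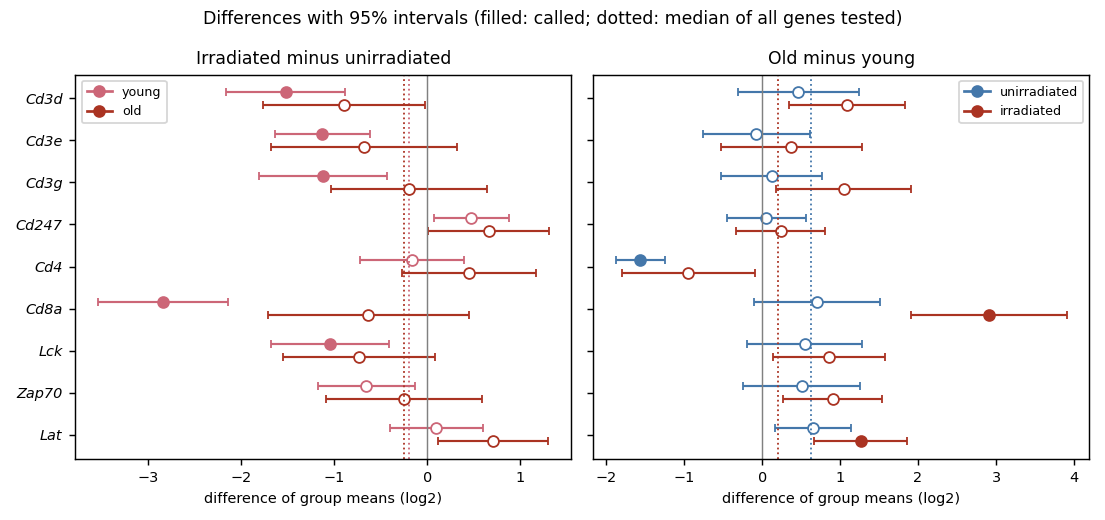
Difference of group means (horizontal axes, log2) with 95% intervals for the 9 genes, irradiated minus unirradiated in each age on the left and old minus young in each exposure on the right. Filled points are called, dotted lines are the median of all genes tested, and Cd8a reads -2.84 in young and -0.63 in old mice.

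The difference in response between ages was tested as an interaction, the old response minus the young response over all 24 arrays. None of the 9 genes was called, nor was any other gene (0.00% of 17802, with 4191 at an unadjusted p under 0.05 and a lowest adjusted p of 0.0607). The difference was positive for all 9 genes, with a median of 0.61 against -0.24 over all genes. Cd8a had the largest, 2.21 (95% interval 0.93 to 3.49, limma unadjusted p = 0.00155, adjusted p = 0.112). It was 2.33 and called (adjusted p = 0.0216) without the 3 irradiated arrays of each age with the most hepatocyte transcripts, where 3655 genes were called in all. It was 2.30 and called (adjusted p = 0.0463) without irradiated old mouse 3, where 1050 genes were called in all. It was 1.65 and not called (adjusted p = 0.191) without irradiated old mice 4 and 6. For the other 8 genes the intervals included 0, the widest being those of Cd3e (-0.69 to 1.58) and Cd3g (-0.14 to 1.99), so a difference between the ages in these genes was neither called nor shown to be absent.

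Between unirradiated old and young mice, Cd4 was lower in old mice and none of the other genes was called, beside 63.8% of all genes called, 48.4% called higher and 15.4% called lower. Cd4 ranged from 6.90 to 7.64 (median 7.30) in young and from 5.55 to 5.94 (median 5.75) in old mice. Every old mouse was below every young mouse, as in 11.2% of all genes, and the spread within old mice was small (SD 0.14). Cd4 was 2.96-fold lower in old mice (log2 difference -1.56, SE 0.15, limma adjusted p = 3.20e-06), which is 2.19 below the median of all genes. A second Cd4 probe, A_52_P383089, had a mean of -1.44 over all mice, against 6.61 for the first probe. It was well above background in 2 of 6 young and 0 of 6 old mice. Tested on its own, it was lower in old mice by a log2 difference of -0.89 and called (SE 0.18, limma adjusted p = 0.000622 over 22482 probes). The main Cd4 values, also in the pairs below, rest on the first probe alone. Cd4 was lower in old mice under each scaling, from -1.56 to -2.38, and with normexp correction its difference of -1.83 was not called (adjusted p = 0.293, where 0 genes were called in all).

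The other 8 genes lay between -0.08 (Cd3e) and 0.70 (Cd8a) in old minus young unirradiated mice. Relative to the median of all genes, these differences ran from -0.71 for Cd3e to 0.07 for Cd8a. Their signs depended on the scaling. Cd3d (0.46), Zap70 (0.50) and Cd3g (0.12) turned to -0.05, -0.02 and -0.40 with 75th percentile scaling, whereas Cd8a (0.70) and Lat (0.65) had 0.18 and 0.14 there, and Lat was -0.05 in the deposited values. Unirradiated old mice 1 and 6 again raised the old group, with Cd3d at 8.89 and 8.97 against 6.86 to 7.49 in the other 4 old mice, and without them Cd3d differed from young mice by -0.15.

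**Figure D4:**
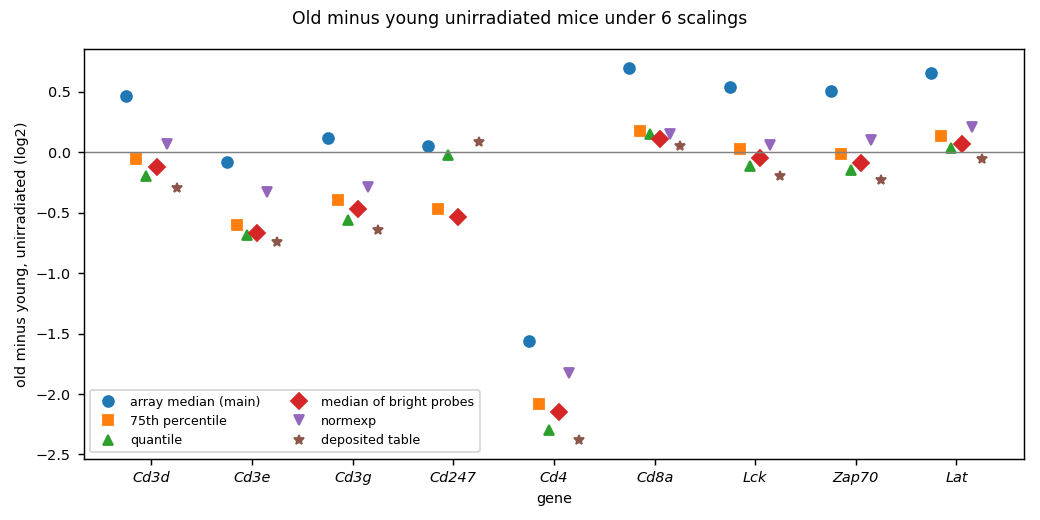
Old minus young difference of each gene in unirradiated mice (vertical axis, log2) under 6 scalings, each with its own marker; Cd247 has no value under normexp, where it did not pass the filter. Cd4 lies between -2.38 and -1.56 under all 6, Cd3e is below and Cd8a above 0 under all 6, and the sign of the other genes differs between scalings (the deposited values hold the other Cd247 probe).

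Among irradiated mice, Cd8a and Lat were higher in old than in young mice, beside 2.00% of all genes called and 1.40% called higher. The 4 groups ordered for Cd8a as irradiated young (mean 1.07 ± 0.80), unirradiated young (3.91 ± 0.31), irradiated old (3.98 ± 0.90) and unirradiated old mice (4.61 ± 0.99, SD, n = 6 each), where only the first stood apart from its neighbour beyond the spread. Irradiated old mice, from 3.16 to 5.13, did not overlap with irradiated young mice, from -0.39 to 1.87, and were 7.52-fold higher (log2 difference 2.91, SE 0.46, limma adjusted p = 0.0144). The second Cd8a probe differed by 2.78 (adjusted p = 0.0141, where 1.90% of probes were called). With the main probe, the difference without the arrays with hepatocyte transcripts was 3.03 and not called (adjusted p = 0.151, 3 mice against 3). Without irradiated young mouse 3 it was 2.87 (adjusted p = 0.0504). With irradiated old mice 4 and 6 left out it was 2.35 and called (adjusted p = 0.00208, where 5051 genes were called in all).

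For Lat the order was unirradiated young (4.89 ± 0.29), irradiated young (4.99 ± 0.50), unirradiated old (5.54 ± 0.51) and irradiated old mice (6.25 ± 0.27). Irradiated old mice, from 5.87 to 6.51, were all above irradiated young mice, from 4.10 to 5.48, as in 4.45% of all genes that were higher without overlap. The difference was 2.40-fold (log2 difference 1.26, SE 0.28, limma adjusted p = 0.0413), and it was 1.04 and not called with 75th percentile scaling. With 1 mouse left out in turn the call held in 2 of 12 cases, without irradiated old mouse 3 or 6, with differences of 1.09 to 1.36. Platelet markers summed to 18017 to 40166 times the array median in irradiated old and 9014 to 23431 times in irradiated young mice, and their part in the Lat difference was not tested. Cd3d (1.09), Cd3g (1.05), Zap70 (0.90) and Lck (0.85) were higher in irradiated old mice without a call, and Cd4 (-0.95) was lower without a call. Without irradiated old mice 4 and 6, Cd4 was lower by a log2 difference of -1.40 and called (limma adjusted p = 0.00835), Lat was 1.19 and called (adjusted p = 0.00759), and Cd3e turned from 0.37 to -0.12. In that setting 5051 genes were called in all.

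Differences between 2 genes of the same array do not change when a single factor scales the whole array. They can change with the background correction, the choice of probe or the deposited values. The 5 pairs were compared in 4 comparisons with exact two-sided permutation tests, adjusted over the 20 tests. Cd4 minus Cd8a sets the helper against the cytotoxic coreceptor. It ranged from 2.84 to 3.97 in unirradiated young, 5.18 to 7.51 in irradiated young, -0.01 to 2.09 in unirradiated old and 1.71 to 2.99 in irradiated old mice. Irradiated young mice were above all others, and unirradiated old mice were below all young mice. The change with irradiation was 2.68 in young mice (exact permutation p = 0.0022, the smallest that 924 splits of 6 and 6 mice allow, adjusted p = 0.0072) and 1.08 in old mice, with overlap (p = 0.035, adjusted p = 0.063), where it was 0.51 without unirradiated old mice 1 and 6. Old mice were lower than young mice by 2.26 without and by 3.86 with irradiation (both exact permutation p = 0.0022, adjusted p = 0.0072).

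The kinases moved unequally. Zap70 minus Lck went from -1.88 ± 0.13 to -1.49 ± 0.21 in young mice (SD, n = 6, exact permutation p = 0.0022, adjusted p = 0.0072) and from -1.92 ± 0.17 to -1.44 ± 0.13 in old mice (p = 0.0043, adjusted p = 0.011), so in both ages Lck was lower relative to Zap70 after irradiation, with no overlap in young mice and with overlap in old mice. Between the ages this pair differed by -0.04 without and 0.05 with irradiation. Cd3e against the B cell gene Cd79a rose by 1.67 in young (exact permutation p = 0.0043, adjusted p = 0.011) and by 3.45 in old mice (p = 0.011, adjusted p = 0.022), as Cd79a was lower by 2.83 and 4.13. The old value was 2.06 without irradiated old mice 4 and 6 (exact permutation p = 0.029, adjusted p = 0.052). It was 5.71 without irradiated old mice 2, 3 and 5 (exact permutation p = 0.012, the smallest that the mice left allow, adjusted p = 0.051). Cd3e against Ncr1, a receptor of natural killer cells, changed by -2.84 in young mice (exact permutation p = 0.0022, adjusted p = 0.0072) and by -2.42 in old mice (p = 0.048, adjusted p = 0.079). The old value was -3.59 without irradiated old mice 4 and 6 (exact permutation p = 0.0095, adjusted p = 0.019), -1.35 without unirradiated old mice 1 and 6 and -1.13 without irradiated old mice 2, 3 and 5. Cd247 minus Cd3e changed by 1.56 in young and 1.34 in old mice with the probe that represents the gene here, and by 0.20 and 0.21 in the authors' deposited values, where Cd247 is represented by its other probe. In old mice it was 1.81 without irradiated mice 4 and 6, 1.11 without unirradiated mice 1 and 6 and 0.78 without irradiated mice 2, 3 and 5.

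**Figure D5:**
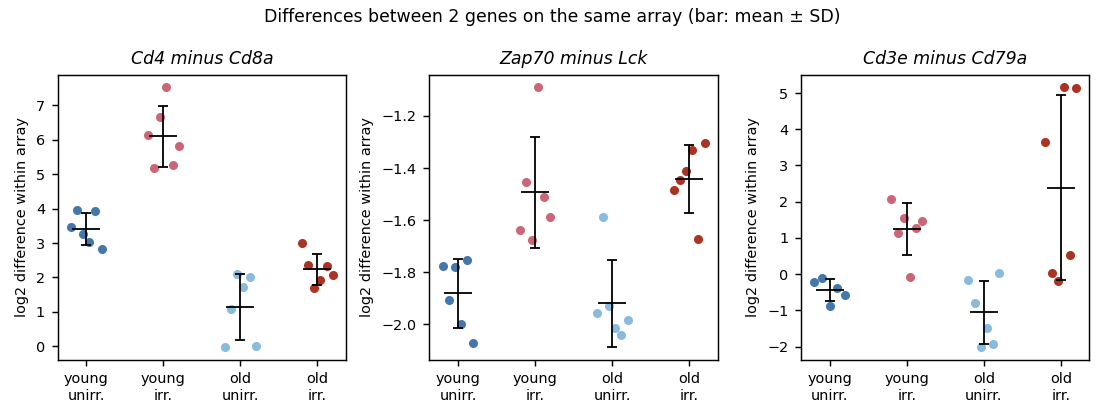
Log2 difference between 2 genes on the same array (vertical axes) in the 4 groups, 1 point per mouse, with the mean ± SD as bars. Cd4 minus Cd8a has means of 3.41, 6.09, 1.15 and 2.23 from left to right, the mean of Zap70 minus Lck is higher in irradiated mice of both ages, and Cd3e minus Cd79a spreads from -0.20 to 5.15 in irradiated old mice.

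Around the receptor, 60 further genes of the pathway were listed in 5 groups, and 57 of them were tested. In young mice 29 were called lower and 1 higher after irradiation, with a median of -0.69, beside 21.1% of all genes called lower and 14.3% called higher. In old mice 19 were called lower and 1 higher, with a median of -0.71, beside 17.4% of all genes called lower and 7.49% called higher. Without unirradiated old mice 1 and 6, 7 were called lower and 1 higher, beside 2078 of all 17802 genes called, 39.6% of them higher. Between unirradiated old and young mice 28 were called higher and 2 lower, beside 48.4% and 15.4% of all genes, with a median of 0.66 against 0.63 over all genes, but with 75th percentile scaling 7 were called higher and 5 lower. Under that scaling 5827 of all 15640 genes tested were called, 28.9% of them higher. Between irradiated mice of the 2 ages 2 were called higher, Rela (0.89) and Tox (1.91, named after its values were seen), beside 1.40% of all genes. The count was 22 higher and 1 lower without irradiated old mice 4 and 6, where 5051 of all 17802 genes were called, 71.3% of them higher. Without the arrays with hepatocyte transcripts it was 0, beside 27 of all genes. With 1 mouse left out in turn the count was 0 to 3, being 0 in every case but those of irradiated old mice 3, 5 and 6. In the interaction 0 were called.

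The counts of the 5 groups below are to be read against the same shares, 21.1% called lower in young and 17.4% in old mice. Of 10 coreceptors and costimulatory receptors, 6 were called lower in young and 2 in old mice, the latter a share near that of all genes. Cd2, an adhesion receptor of T and natural killer cells, fell by 0.96 (SE 0.16) in young and by 1.56 (SE 0.29) in old mice. Cd5, an inhibitory receptor of T cells, fell by 1.89 in young mice and differed by -0.94 in old mice without a call (-0.51 without unirradiated old mice 1 and 6). Ptprc, the phosphatase CD45, differed by -0.63 and -0.80 and was not called in either age, and the old value was -0.11 without irradiated old mice 4 and 6. Of 12 adaptors tested, 5 were called lower and 1 higher in young and 2 lower in old mice. Lcp2, the adaptor SLP-76 that binds Lat complexes, rose by 1.25 (SE 0.18, limma adjusted p = 0.000135) in young mice and differed by 0.86 in old mice without a call, although it was called without irradiated old mice 4 and 6 (1.19). It is also expressed in other white cells. Fyb (0.58 and 0.78), Grb2 (-0.19 and -0.71) and Skap1 (-0.97 and -0.79) were called in neither age. Without irradiated old mice 4 and 6, the old values were 1.08 for Fyb, which was then called, and -0.18 for Grb2, and without irradiated young mice 2, 4 and 5 the young values were 0.99 for Fyb, also called, -0.08 for Grb2 and -0.39 for Skap1. Without unirradiated old mice 1 and 6, Skap1 in old mice was -0.29. Trat1, an adaptor that stabilizes the receptor at the surface, and Sh2d2a, which binds Lck, were the 2 pathway genes called lower in unirradiated old mice, by 1.61 (SE 0.22) and 1.11 (SE 0.30) on the log2 scale.

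Among 13 kinases, phosphatases and enzymes tested, 7 were called lower in young mice, and 4 lower and 1 higher in old mice. Dgka, which removes diacylglycerol, fell by 1.64 (SE 0.17) in young and by 1.32 (SE 0.29) in old mice, a call that was lost without unirradiated old mice 1 and 6 (-1.12). Ptpn6, the phosphatase SHP-1, fell by 0.81 in young mice and differed by -1.14 in old mice without a call (-0.31 without irradiated old mice 4 and 6). Vav1, an exchange factor, was called in neither age (-0.34 and -0.44), and its old value was 0.11 without irradiated old mice 4 and 6. Prkcq, the protein kinase C theta of T cells, went the other way, called higher in old mice by 1.23 (SE 0.29, limma adjusted p = 0.00655), with 0.70 in young mice without a call (1.11 and called without irradiated young mice 2, 4 and 5). Of 12 genes downstream of the synapse, 4 were called lower in young and 5 in old mice, while Nfkbia, Rela and Ppp3ca were called in neither age. Without irradiated old mice 2, 3 and 5, Nfkbia was called lower in old mice (-1.75), and without irradiated old mice 4 and 6 it was -0.42. Of 10 T lineage transcription factors, 7 were called lower in young and 6 in old mice. Lef1, a factor of naive T cells, fell by 2.20 (SE 0.31) and 1.98 (SE 0.49), and Ets1 fell by 1.95 (SE 0.26) and 2.11 (SE 0.32). In old mice Lef1 was -1.22 and called without irradiated mice 4 and 6, and -1.70 and not called without unirradiated mice 1 and 6. Zbtb7b, which directs the CD4 lineage, was called in neither age (-0.49 and 0.48), and its old value was -0.39 without irradiated old mice 4 and 6 and 1.56 without irradiated old mice 2, 3 and 5.

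The 9 genes did not share 1 profile over the 24 mice. Measured by the root mean square difference of gene-centred levels from the mean of the other 8, Zap70 was closest (0.26), followed by Cd3g (0.29) and Lck (0.37), and Cd8a (1.17) and Cd4 (1.17) were farthest. The mean profile of the 9 genes was lowest in irradiated young mouse 4 (-1.43) and highest in unirradiated old mice 6 (1.24) and 1 (1.08). The 8 other genes most like this mean profile over the 24 mice were the transcripts listed as ENSMUST00000103291 (root mean square difference 0.26) and ENSMUST00000103299, and Ubash3a (0.28), Traf1, Sla2, Sit1, Arl4c and Gimap5 (0.32), where the median gene was at 0.91. Cd8a and Cd4 ranked 11680 and 11622 of 17802 genes in likeness to this mean.

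The promoters of genes that fell and of Lat, which was not called lower in either age, are shown to set the members side by side. RefSeq gave start sites for 8 of the 9 genes (build GRCm38.p6), and Cd4 was not in the table. The 250 bases before the start were searched on both strands, with matches in capitals and each window read 5′ to 3′ on the strand of its gene. The letters searched were GGAAG for the core bound by ETS factors, TGTGGT for the sequence recognised by RUNX factors, and AGATAA for the sequence recognised by GATA factors. They were also CTTTGA for the sites of the TCF and LEF family, CAGGTG for an E-box of the kind bound by E proteins, and TATAAA for the box of that name. The windows are chr6:71373177-71373426 (plus) for Cd8a, chr9:44981536-44981785 (plus) for Cd3d, chr9:45009612-45009861 (minus) for Cd3e and chr7:126369569-126369818 (minus) for Lat.
Cd8a: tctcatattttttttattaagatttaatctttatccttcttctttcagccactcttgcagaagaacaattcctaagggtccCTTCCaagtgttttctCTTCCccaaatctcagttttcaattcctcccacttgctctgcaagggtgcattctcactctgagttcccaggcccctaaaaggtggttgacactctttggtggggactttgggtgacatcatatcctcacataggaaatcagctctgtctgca
Cd3d: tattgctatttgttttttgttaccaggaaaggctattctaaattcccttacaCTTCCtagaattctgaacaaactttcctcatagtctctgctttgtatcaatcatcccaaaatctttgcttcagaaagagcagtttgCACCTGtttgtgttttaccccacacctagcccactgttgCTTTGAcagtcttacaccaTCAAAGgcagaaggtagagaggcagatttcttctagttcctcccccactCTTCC
Cd3e: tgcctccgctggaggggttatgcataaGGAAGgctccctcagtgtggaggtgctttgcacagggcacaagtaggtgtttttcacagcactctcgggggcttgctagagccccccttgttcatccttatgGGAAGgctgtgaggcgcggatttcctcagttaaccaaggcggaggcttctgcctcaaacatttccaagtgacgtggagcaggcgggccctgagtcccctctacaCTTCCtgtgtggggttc
Lat: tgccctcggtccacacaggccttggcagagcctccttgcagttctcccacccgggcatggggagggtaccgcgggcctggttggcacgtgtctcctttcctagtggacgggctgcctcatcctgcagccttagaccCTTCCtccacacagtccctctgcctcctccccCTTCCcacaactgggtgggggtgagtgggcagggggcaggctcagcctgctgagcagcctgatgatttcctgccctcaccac

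The 8 genes had 11 windows, with 2 for Lck and 3 for Zap70. The ETS core was present in 9 of 11 windows and in 64.1% of the 32851 promoters of the table. The E-box was in 6 of 11 windows against 17.2% of all promoters, and TATA in 0 of 11 against 12.4%. RUNX and TCF or LEF letters were each in 2 of 11 windows (14.0% and 13.8% of all promoters) and GATA in 1 (9.99%). Cd8a, which changed most, and Lat, which was not called lower, each held 2 ETS cores and none of the other letters. These matches describe the windows and were not tied to the expression values by a test.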

How the data were processed

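Blood RNA of 24 mice was hybridised to Agilent mouse arrays with 1 dye, 1 mouse per array. The authors deposited the scanner output, read with Agilent Feature Extraction 12.0.2 per the submitters' processing notes, whose processed signal is an intensity after background subtraction. They also deposited a table of log2 values with 1 probe per gene, which served as an alternative. Depth does not apply to arrays, and the number of mice limits the precision.

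Here the log2 processed signal was centred on the median of each array, non-uniform spots were left out, and repeat spots of a probe were averaged. A probe was kept where it was non-uniform or not above background in fewer than 25% of arrays, and differed by over 1.5-fold from its median in at least 5 arrays. The kept probe with the highest mean stood for a gene. Groups came from the labels. Comparisons of 6 with 6 mice used limma 3.58.1 in R 4.3.3 on the arrays of that comparison, and the interaction used all 24. Calls needed p below 0.005 and an adjusted p below 0.05. The scripts were tested on simulated data.

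The members and gene lists were chosen with earlier results of these data known. All 9 genes were named with every probe. Of each pathway list, the 3 genes with the highest mean signal and any gene called against its list were named, and of the marker lists Cd79a and Ncr1. Alternatives were other scalings, normexp correction, the deposited values, filters, probe rules, variance models, blocks by slide and replicate number, and omission of single mice. Omission or averaging of the arrays that stood apart, for members, pairs and pathway genes, and testing each probe on its own, were chosen after seeing the data.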

Additional observations from a re-analysis of the deposited data

Results flagged for a closer look

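Of 56 groups of 5 or 6 values tested for a sample far from the others, 2 had one, where chance alone gives about 1 in 20. Cd3d of irradiated old mouse 5 was 6.25, below the next lowest of its group at 6.79. Zap70 minus Lck of unirradiated old mouse 2 was -1.59, above the next highest of its group at -1.93. Neither was explained by a test. In 0 of 14 genes and pairs did all irradiated mice of the 2 ages lie on opposite sides of their unirradiated means.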

How the results depend on the processing

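Cd8a in young mice was called under all 16 alternatives (-3.07 to -1.50) and in all 12 omissions of 1 mouse, and Cd4 in unirradiated mice under 15 of 16. Of the 9 genes in young mice, 1 was called with normexp or slide as a fixed block, 2 in 1 fit of all 24 arrays and 3 without the hepatocyte-rich arrays. In old mice 1 was called with 75th percentile scaling, with the median over probes above background, without the hepatocyte-rich arrays and without unirradiated mice 1 and 6. With age, 0 (normexp) and 2 (slide as a random block) were called in unirradiated mice. In irradiated mice 1 was called under 75th percentile, quantile or above-background scaling, the deposited values, no dim filter or averaged similar arrays, and 0 without the hepatocyte-rich arrays. In the interaction 1 was called without those arrays. Omitting 1 mouse gave 3 to 6 genes in young, 0 to 0 in old, 1 to 1 in unirradiated and 0 to 2 in irradiated mice, and 0 to 1 in the interaction. Of the pathway genes, young mice had 1 (normexp) and 12 (slide fixed) called. Old mice had 0 (normexp, slide fixed), 13 (deposited values), 11 (averaged) and 8 (without mice 1 and 6). Unirradiated mice had 0 (normexp), 12 (75th percentile), 10 (quantile, deposited values), 9 (above background) and 15 (1 fit). Irradiated mice had 18 (1 fit), 15 (slide random), 23 (without old mice 4 and 6) and 0 under every scaling, the deposited values, normexp, no dim filter, averaging and without the hepatocyte-rich arrays, and the interaction had 5 without those arrays. Calls over all genes moved too. In irradiated mice they went from 356 to 5051 without old mice 4 and 6. In the interaction they went from 0 to 3655 without the hepatocyte-rich arrays. Omitting 1 mouse gave 30 to 36 pathway genes in young, 13 to 20 in old, 28 to 31 in unirradiated and 0 to 3 in irradiated mice, and 0 to 2 in the interaction.

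Values that changed sign were all uncalled in the comparison reported, and the cause was not tested. In young mice Cd4 was 0.44 (normexp) and 0.34 (hepatocyte-rich arrays out), Lat -0.0216 (slide fixed), -0.00729 (quantile) and -0.0915 (deposited values), and Cd247 -1.28 (deposited values) and -0.30 (mean of probes). In old mice Cd247 was -0.62 and -0.0839 under the same settings, Cd3e 0.0396 and Cd3g 0.24 without the hepatocyte-rich arrays, and Cd3g and Zap70 were 0.41 and 0.35 (normexp), 0.11 and 0.0471 (75th percentile), 0.15 and 0.0926 (above background) and 0.28 and 0.30 (without mice 1 and 6). Between unirradiated mice of both ages, Cd247, Cd3d, Cd3g and Zap70 were -0.47, -0.054, -0.40 and -0.0151 (75th percentile). Cd247, Cd3d, Cd3g, Lck and Zap70 were -0.54, -0.12, -0.47, -0.0454 and -0.0842 (above background), -0.13, -0.15, -0.35, -0.0358 and -0.0493 (without old mice 1 and 6) and -0.02, -0.19, -0.56, -0.11 and -0.15 (quantile). Cd3d, Cd3g, Lat, Lck and Zap70 were -0.29, -0.64, -0.0534, -0.19 and -0.23 (deposited values), Cd3g -0.29 (normexp), and Cd247 and Cd3g -0.0211 and -0.0662 (averaged). Between irradiated mice Cd3e was -0.0114 (normexp), -0.25 (quantile), -0.24 (deposited values) and -0.12 (without old mice 4 and 6), and Cd247 -0.0326 (above background). In the interaction Lck was -0.22 (hepatocyte-rich arrays out) and Cd3e -0.0368 (without old mice 4 and 6). Omitting 1 mouse gave Lat -0.00325 to 0.28 in young, Cd3g -0.34 to 0.0327 in old, and Cd247 -0.0259 to 0.21, Cd3e -0.26 to 0.0668 and Cd3g -0.10 to 0.27 in unirradiated mice.

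Of the pairs, Cd4 minus Cd8a in old mice was 1.09 and past the threshold with normexp, and 0.85 to 1.27 with 1 mouse omitted. Cd247 minus Cd3e was 0.20 (young) and 0.21 (old) in the deposited values and 0.60 (old) with the mean of probes, none past it. Between irradiated mice it was 0.98 and 0.10 under these settings, and with 1 mouse omitted -0.52 to 0.0652, against -0.10 to 0.20 in unirradiated mice. Zap70 minus Lck in unirradiated mice was 0.0394 with normexp. Cd3e minus Ncr1 in old mice was -2.98 to -1.98 with 1 mouse omitted. With irradiated young mice 2, 4 and 5 and irradiated old mice 2, 3 and 5 left out, these pairs were no longer past the threshold: in young mice Cd4 minus Cd8a (2.79), Cd247 minus Cd3e (1.38), Zap70 minus Lck (0.246), Cd3e minus Cd79a (2.13) and Cd3e minus Ncr1 (-3.03), in old mice Cd247 minus Cd3e (0.777), Zap70 minus Lck (0.546) and Cd3e minus Cd79a (5.71), and between irradiated mice Cd4 minus Cd8a (-3.87, 3 mice against 3, where the test cannot pass). With 3 irradiated mice left, an exact permutation p of 0.0119 (0.0179 in young pairs with Cd3e) was the smallest that the splits allow. All these young pairs but Zap70 minus Lck (0.0238) reached it, with an adjusted p of 0.051. In old mice Zap70 minus Lck and Cd3e minus Cd79a did so too. For these pairs the lost call cannot be told apart from the smaller number of mice. Without unirradiated old mice 1 and 6, Cd247 minus Cd3e in old mice was 1.11 and no longer past the threshold. Between unirradiated mice Cd3e minus Cd79a was then -1.12 and past it, and Cd3e minus Ncr1 was -0.326, with the sign changed. Without irradiated old mice 4 and 6, Cd3e minus Cd79a (2.06) was no longer and Cd3e minus Ncr1 (-3.59) was newly past it in old mice, and between irradiated mice the sign changed for Cd247 minus Cd3e (0.341), Zap70 minus Lck (-0.0105), Cd3e minus Cd79a (-0.233) and Cd3e minus Ncr1 (-0.00514).

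Replicate numbers did not pair the mice: correlations of same-numbered deviations ran from -0.29 to 0.29 in young and -0.20 to 0.34 in old mice, and from -0.08 to 0.16 and -0.60 to 0.58 between the ages. With the replicate block 4 of the 9 genes were called in young mice, 0 in old, 1 in unirradiated and 0 in irradiated mice, with 0 pathway genes in irradiated mice, and Cd3e in unirradiated mice was 0.0668. Cd247 had no value under normexp.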
